A study of Mus musculus with 4 samples.

Results

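METTL3 occupancy was examined at 9 mouse genes that hold, or lie next to, a METTL3 peak of embryonic stem cells found in both replicates, at 8 of them among the tallest (Wdr7 is the exception): 6030442K20Rik, Thada, Tnfrsf19, Fryl, Epb41l4a, Fam174a, Cdc37l1, Ubqln4 and Wdr7. A listed peak was taken when its centre fell in the mm10 body of one of these genes or within 10 kb of it. This gave 11 of the 353 peaks of replicate 1 and 10 of the 281 peaks of replicate 2. Of these, 10 overlapped between the lists by at least 1 bp, out of 195 shared peaks in all, and each of the 9 genes had at least 1. Over the whole lists 55.2% of the peaks of replicate 1 and 69.4% of those of replicate 2 overlapped a peak of the other, and nothing is read from the count at these genes, which were picked for peaks present in both. The genes were selected on peak height in these same lists, so heights, enrichments and the likeness of the replicates are given as a description, with no test. Peaks nearest to the 10 kb limit lay 5.77 kb from Tnfrsf19 on the inside (36.4 and 34.9 normalised IP tags) and 118 kb from Fryl on the outside (10.8 and 12.4).

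The experiment compared 2 chromatin immunoprecipitations (IP) with a rabbit antibody against METTL3 and 2 inputs, which are sonicated chromatin taken without antibody. All 4 libraries came from wild-type C57BL/6 mouse embryonic stem cells kept in 1000 U/ml LIF with 3 μM CHIR99021 (a GSK3 inhibitor) and 1 μM PD0325901 (a MEK inhibitor), and fixed with 1% formaldehyde. The IPs held 22246555 and 21793898 tags per the file headers, and the inputs about 24800000 and 14900000, as recovered from the caller's scaling. Nothing in the labels says that replicates were separate cultures, so their spread may be technical, and no library without METTL3 or with a control antibody was analysed here. RNA was not measured, so how broadly these genes are expressed, and whether these cells express them, was not analysed here.

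METTL3 forms a nuclear complex with METTL14 that methylates adenosines of RNA, largely while the RNA is still being made. The enzyme acts on RNA, so a METTL3 ChIP peak marks DNA that was crosslinked near the protein, directly or through other molecules. Whether the 9 genes share a pathway was not tested. They encode a receptor (Tnfrsf19), proteins of the cell cortex and cell shape (Epb41l4a, Fryl), helpers of protein folding and breakdown (Cdc37l1, Ubqln4), a regulator of the proton pump of endosomes (Wdr7), a large armadillo-like protein (Thada), a small membrane protein (Fam174a) and a long non-coding RNA (6030442K20Rik).

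At the 7 genes with a promoter window none of the peaks lay on it, and 3 promoters are shown because they are the reference points from which these sites are placed. The one of 6030442K20Rik is the annotated start nearest to the tallest site, while those of Ubqln4 and Tnfrsf19 belong to the genes whose peaks lie past the downstream end. Each window runs from 250 bases before the start to 50 after it, on the gene's own strand, from RefSeq on GRCm38.p6 (mm10). Capitals mark CpG dinucleotides, which are dense in promoters of many broadly expressed genes. Epb41l4a and Wdr7 had no entry.
6030442K20Rik (chr1:132477015-132477314, minus strand): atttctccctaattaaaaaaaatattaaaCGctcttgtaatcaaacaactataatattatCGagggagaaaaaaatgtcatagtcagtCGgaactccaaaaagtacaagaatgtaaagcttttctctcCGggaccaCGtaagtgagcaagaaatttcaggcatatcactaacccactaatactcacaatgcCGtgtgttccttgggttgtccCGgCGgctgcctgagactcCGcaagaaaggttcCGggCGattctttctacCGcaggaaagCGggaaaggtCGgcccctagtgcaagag
Ubqln4 (chr3:88553466-88553765, plus strand): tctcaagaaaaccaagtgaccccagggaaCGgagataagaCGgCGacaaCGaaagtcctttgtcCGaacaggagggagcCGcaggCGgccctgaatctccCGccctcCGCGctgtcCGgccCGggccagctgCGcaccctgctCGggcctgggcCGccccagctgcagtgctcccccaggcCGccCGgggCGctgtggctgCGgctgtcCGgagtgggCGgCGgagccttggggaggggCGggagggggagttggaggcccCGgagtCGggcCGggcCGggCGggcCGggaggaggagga
Tnfrsf19, upstream start (chr14:61046806-61047105, minus strand): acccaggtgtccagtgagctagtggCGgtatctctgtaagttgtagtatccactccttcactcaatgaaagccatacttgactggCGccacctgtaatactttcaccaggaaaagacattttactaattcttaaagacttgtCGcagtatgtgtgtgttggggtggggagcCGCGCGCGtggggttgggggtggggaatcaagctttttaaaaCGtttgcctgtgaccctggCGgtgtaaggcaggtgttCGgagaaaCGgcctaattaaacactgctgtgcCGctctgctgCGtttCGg

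The tallest of these sites lay in the long non-coding RNA gene 6030442K20Rik, a 10.44 kb gene on the minus strand of chromosome 1 (132466628 to 132477064). Height below means the authors' normalised tag count, the IP tags of a peak scaled to a library of 10000000 tags, and intervals are exact 95% intervals that cover counting error only. Positions are those of replicate 1, and heights and the caller's folds are the authors' own values per peak. The peak (132471153 to 132471323) measured 42.3 (34.15 to 51.71) in replicate 1 and 40.8 (32.8 to 50.25) in replicate 2, second in both lists and first among shared peaks by mean height (41.55 ± 1.06, SD, n = 2). The 2 centres were 1 bp apart. The site stood 5.83 kb past the start of the RNA, at 55.8% of the gene's length, between a pair of protein-coding genes. Dstyk, a kinase gene, lay 4.28 kb below it, and Rbbp5, which encodes a core subunit of the histone H3 lysine methyltransferase complexes of the MLL family, began 6.11 kb above it.

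The start of 6030442K20Rik and that of Rbbp5 lay 303 bp apart and pointed away from each other, so the window printed above overlaps the promoter of Rbbp5. The peak was thus almost as near to the start of Rbbp5 (6.13 kb) as to that of its own host. Replicate 1 had a second peak in the region (132481379 to 132481549), 4.4 kb beyond the upstream end of 6030442K20Rik and inside the body of Rbbp5, with a height of 8.99 (5.491 to 13.88) and 20 IP tags against 2 input tags (11.15-fold, 2.709 to 98.4). It had no counterpart in the list of replicate 2. That peak ranked 140 of 353 by height, far below the main site.

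Tnfrsf19 encodes TROY, a receptor of the tumour necrosis factor family and a known target of Wnt signalling. Its gene spans 83.02 kb on the minus strand of chromosome 14 (60963834 to 61046855), and the peak (60957983 to 60958153) lay outside it, 5.77 kb past the downstream end and 88.8 kb from the upstream start. Heights were 36.4 (28.91 to 45.25) and 34.9 (27.48 to 43.65), sixth in both lists. The focus ratio, the share of a peak's tags found on the strand side expected around a point-like site, was 0.746 and 0.748. These were the lowest values among the 9 genes in each replicate. In the whole lists 17.3% and 18.5% of peaks had a lower ratio. The centres differed by 46 bp. On the other side of the peak the nearest protein-coding gene was Mipep, a mitochondrial peptidase gene, 52.6 kb below.

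Epb41l4a and Fryl, genes of over 200 kb, carried their peaks inside the gene body. Epb41l4a encodes a FERM-domain protein of the band 4.1 family, which links membrane proteins to the cytoskeleton. Its peak on chromosome 18 (33836030 to 33836200) measured 36.9 (29.32 to 45.75) and 33.0 (25.85 to 41.6), ranking 4 and 9. It lay 39.8 kb above the lower end of the gene (33796327 to 34007484), or 18.8% of the length from that end. No other protein-coding gene lay within 200 kb. The nearest were Nrep, 372 kb below, and Apc, the gene of a scaffold that restrains beta-catenin, 384 kb above.

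Fryl encodes a relative of the fly protein Furry, which acts with NDR kinases in cell shape. The Fryl peak on chromosome 5 (73219816 to 73219986) measured 32.4 (25.32 to 40.76) in replicate 1 and 38.5 (30.74 to 47.72) in replicate 2, ranking 11 and 3. It was 36.7 kb past the start on the minus strand, 15.5% of the way along the gene (73020191 to 73256699). The nearest other coding gene was Ociad1, 72.9 kb above, and Slc10a4 was 207 kb below. Fryl and Wdr7 were the members whose peak was higher in replicate 2, whereas the other 7 were higher in replicate 1. The same share was not counted over all shared peaks, whose median heights were 10.3 in replicate 1 and 10.1 in replicate 2.

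Cdc37l1 and Ubqln4 encode helpers of protein folding and breakdown, and their peaks were lower than those above. CDC37L1 is a co-chaperone of HSP90. Its peak on chromosome 19 (29008160 to 29008330) measured 28.8 (22.16 to 36.74) and 23.4 (17.42 to 30.77), ranking 12 and 15. It sat near the middle of the gene (28990337 to 29026664), 17.9 kb past the start on the plus strand. The nearest coding genes not overlapping it were 4430402I18Rik, 40.4 kb below, and Rcl1, 93.1 kb above. The same position is within Ak3, the gene of a mitochondrial adenylate kinase, so the peak cannot be given to a single host. The focus ratio was 0.924 in replicate 1 and 0.810 in replicate 2, with centres 42 bp apart.

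UBQLN4 is a ubiquilin, a carrier of ubiquitin-tagged proteins to the proteasome. The peak on chromosome 3 (88571998 to 88572168) lay 2.36 kb past the downstream end of Ubqln4 (88553677 to 88569725, plus strand) and 18.4 kb from its start. Heights were 26.5 (20.19 to 34.21) and 21.6 (15.85 to 28.68), ranking 13 and 18. Among the 9 sites this one had the most other protein-coding genes within 200 kb, 16. Ssr2, a subunit of the complex that helps proteins enter the endoplasmic reticulum, lay 7.53 kb above, and Lamtor2, a subunit of the lysosomal Ragulator complex, 19.1 kb below.

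Thada, named for its disruption in thyroid adenomas, was the only one of the 9 genes with 2 shared peaks. The taller (chromosome 17, 84355131 to 84355301) measured 40.5 (32.53 to 49.73) and 32.1 (25.04 to 40.58), ranking 3 and 10. The lower (84351409 to 84351579) measured 15.7 (10.96 to 21.88) and 14.7 (10.04 to 20.73), ranking 39 and 40. Their centres were 3722 bp apart in replicate 1 and 3731 bp in replicate 2. In height the lower peak was 0.389 times the taller in replicate 1 (95% interval 0.255 to 0.581) and 0.457 times in replicate 2 (0.291 to 0.704), so the proportion differed by less than the counting error. Both lay well inside the 276.2 kb gene (84190056 to 84466246), the taller 111 kb past the start on the minus strand. Zfp36l2, an mRNA decay factor gene, was 167 kb below and Plekhh2 157 kb above.

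Fam174a, a little-studied gene of 21.66 kb that encodes a membrane protein, held a peak on chromosome 1 (95326973 to 95327143) of 36.0 (28.51 to 44.76) and 33.5 (26.26 to 42.12), ranking 7 and 8. It was 13.4 kb past the start on the plus strand, at 62.0% of the gene (95313628 to 95335284). The focus ratio reached 0.976 in replicate 2, the highest of any shared peak in either list, and 0.910 in replicate 1. The replicate centres were 49 bp apart. No other coding gene was within 200 kb, St8sia4 being 261 kb above and Pdcd1 1270 kb below.

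Wdr7 encodes a partner of the vacuolar proton pump. Its peak on chromosome 18 (63924623 to 63924793) was the lowest of the 9, at 13.5 (9.098 to 19.25) in replicate 1 and 17.4 (12.34 to 23.93) in replicate 2, and its ranks of 55 and 24 do not place it among the tallest sites. Of the 195 shared peaks, 157 had a lower mean height. The site lay 216 kb from the lower and 65.1 kb from the upper end of the 281.3 kb gene (63708498 to 63989760). Txnl1, 232 kb below, and St8sia3, 330 kb above, were the nearest other coding genes.

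**Figure D1:**
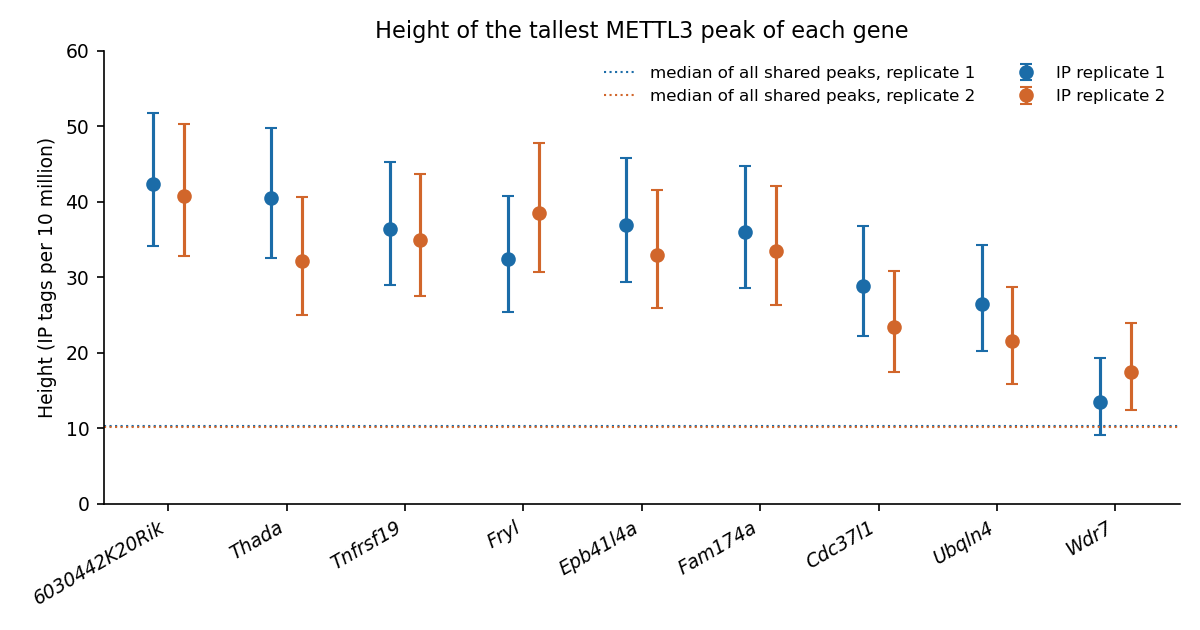
Height of the tallest METTL3 peak of each gene, in IP tags per 10000000 tags, for IP replicate 1 (blue) and replicate 2 (orange). Points are single libraries, bars are exact 95% Poisson intervals of the tags and dotted lines are the medians of all 195 shared peaks (10.3 and 10.1). The 2 intervals of every gene overlap, and the interval of Wdr7 in replicate 1 is the one that reaches down to the median.

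By height, 8 of the 9 tallest member peaks were among the first 20 of both lists, as were 7.69% of all shared peaks. The exception was Wdr7. The rule used this measure, so the share describes the choice. The median height was 34.95 over the 9 peaks and 9.995 over all shared peaks. Of the 15 shared peaks among the first 20 of both lists, 7 were at none of the 9 genes. One lay in Tet2, the gene of a DNA demethylating enzyme (33.7 and 48.6). Others of similar height lay outside annotated genes, 23.2 kb from Gm20177 on chromosome 6 (44.1 and 37.2), 19.6 kb from Gm12687 on chromosome 4 (36.9 and 34.0) and 8.62 kb from E330032C10Rik on chromosome 17 (35.1 and 35.3). The tallest group thus also holds sites at other genes.

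Heights at the 9 genes differed between replicates by less than the counting error. The ratio of replicate 2 to replicate 1 ran from 0.794 to 1.29, and the 95% interval of the ratio included 1 at all 9. How many of all shared peaks have an interval that includes 1 was not computed, so nothing particular to these genes is read from this. The widest departures were Wdr7 (1.29, 0.78 to 2.16) and Thada (0.794, 0.572 to 1.10). Every one of the 9 lay within 1.5 times, against 89.7% of all shared peaks. The median absolute log2 ratio of the heights was 0.249 at the 9 and 0.247 over all shared peaks. The 9 were picked for height in both lists, so nothing is read from the share within 1.5 times. With 30 to 94 tags behind each height, smaller differences between the replicates were not detectable at this depth. Centres were 1 to 49 bp apart (median 12 bp), against a median of 27 bp over all shared peaks. They were over 40 bp apart at Fam174a, Tnfrsf19 and Cdc37l1, or 3 of 9 peaks, against 30.3% of all shared peaks.

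**Figure D2:**
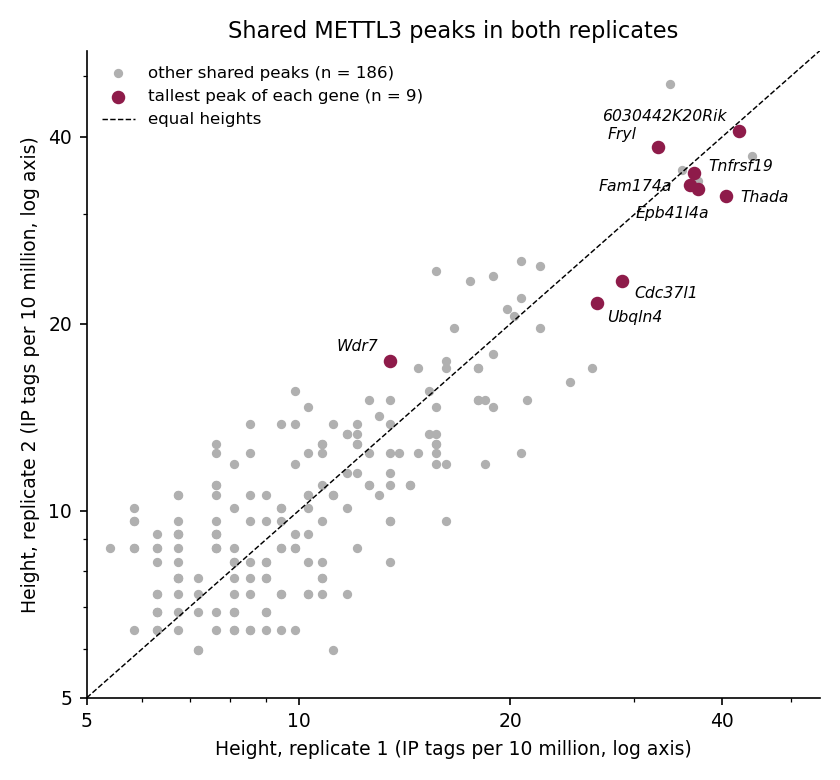
Height in replicate 1 against height in replicate 2 for all 195 shared peaks, both in IP tags per 10000000 tags on log axes. The 9 named peaks are dark, the other 186 are grey and the dashed line marks equal heights. Apart from Wdr7 the named peaks lie at the upper right, with Fryl above the line and Thada, Cdc37l1 and Ubqln4 below it.

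Input tags at these sites were few, and the enrichment over input was therefore loosely known. In replicate 1 the 9 peaks held 1 to 6 input tags (median 2) and in replicate 2 from 0 to 6 (median 3). Over all shared peaks the medians were 3 and 1. The median of the caller's fold was 32.9 in replicate 1 and 12.96 in replicate 2 at the 9 peaks. Over all shared peaks it was 10.04 and 10.91. Why the 2 inputs differed at these sites was not tested. The order of the genes by enrichment changed with the input tags. At 6030442K20Rik, 94 IP tags stood against 1 input tag in replicate 1, which is 104.8-fold (95% interval 18.36 to 4184), and 89 against 6 in replicate 2, which is 10.1-fold (4.467 to 28.29). At Fryl it was the reverse, with 73 against 6 in replicate 1 (13.6-fold, 5.942 to 38.17) and 84 against 0 in replicate 2. With 3 input tags in place of 0, the limit a count of 0 allows, that library gives 19.09-fold, which leaves out the counting error of the IP tags. The exact 95% interval starts at 15.19.

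Thada stood at 50.7-fold (13.65 to 425.3) in replicate 1, on 91 IP and 2 input tags, and at 9.54-fold (3.901 to 30.31) in replicate 2, on 70 and 5. Its lower peak gave 7.81-fold (3.045 to 25.52) and 10.9-fold (2.783 to 93.94). Fam174a had 2 input tags in both replicates and gave 44.6-fold (11.95 to 374.6) and 24.9-fold (6.646 to 209.3). Epb41l4a, with 6 and 5 input tags, gave 15.2-fold (6.709 to 42.73) and 9.82-fold (4.018 to 31.15). In all 3 genes the intervals of the replicates overlap.

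Tnfrsf19 was 30.1-fold over input (9.943 to 149) in replicate 1 and 13.0-fold (4.856 to 48.76) in replicate 2. Cdc37l1 was 24.5-fold (8.036 to 122) and 17.4-fold (4.572 to 147.4), and Ubqln4 32.9-fold (8.712 to 278) and 10.7-fold (3.438 to 53.65). Wdr7 had 30 IP tags and 1 input tag in replicate 1 (33.5-fold, 5.561 to 1365) and 38 and 0 in replicate 2, which gives at least 8.635-fold by the same limit. The caller's fold was at least 8 in both lists at all 9 genes, and at 44.1% of all shared peaks. At Fryl and Wdr7 the caller's fold of replicate 2 rests on its substitute for 0 input tags. This measure comes from the same IP tags as the height.

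Against the surrounding 10 kb of the same IP library, a comparison that needs no input, the values of the replicates lay nearer to each other. The caller's local fold was 45.40 and 49.61 at 6030442K20Rik, 38.64 and 43.15 at Fam174a, and 28.15 and 28.75 at Fryl. Those of Cdc37l1 were 28.52 and 23.69, of Thada 27.80 and 24.68, of Epb41l4a 27.40 and 31.92, and of Tnfrsf19 25.58 and 24.99. Ubqln4 followed with 20.93 and 19.79 and Wdr7 with 15.82 and 22.69. Every one of these tallest peaks was above the median of all shared peaks, 11.1 in replicate 1 and 11.51 in replicate 2. The lower Thada peak, with 8.65 and 9.7, was below both medians. The local fold comes from the same IP tags as the height, on which the genes were selected, so nothing is read from these values. At the 7 genes with input tags in both replicates, the ratio of replicate 2 to replicate 1 was 0.831 to 1.165 for the local fold. For the caller's fold over input it was 0.0965 to 0.709. With Fryl and Wdr7 included, the ranges were 0.831 to 1.434 and 0.0965 to 8.443. The last value rests on the caller's substitute for 0 input tags.

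**Figure D3:**
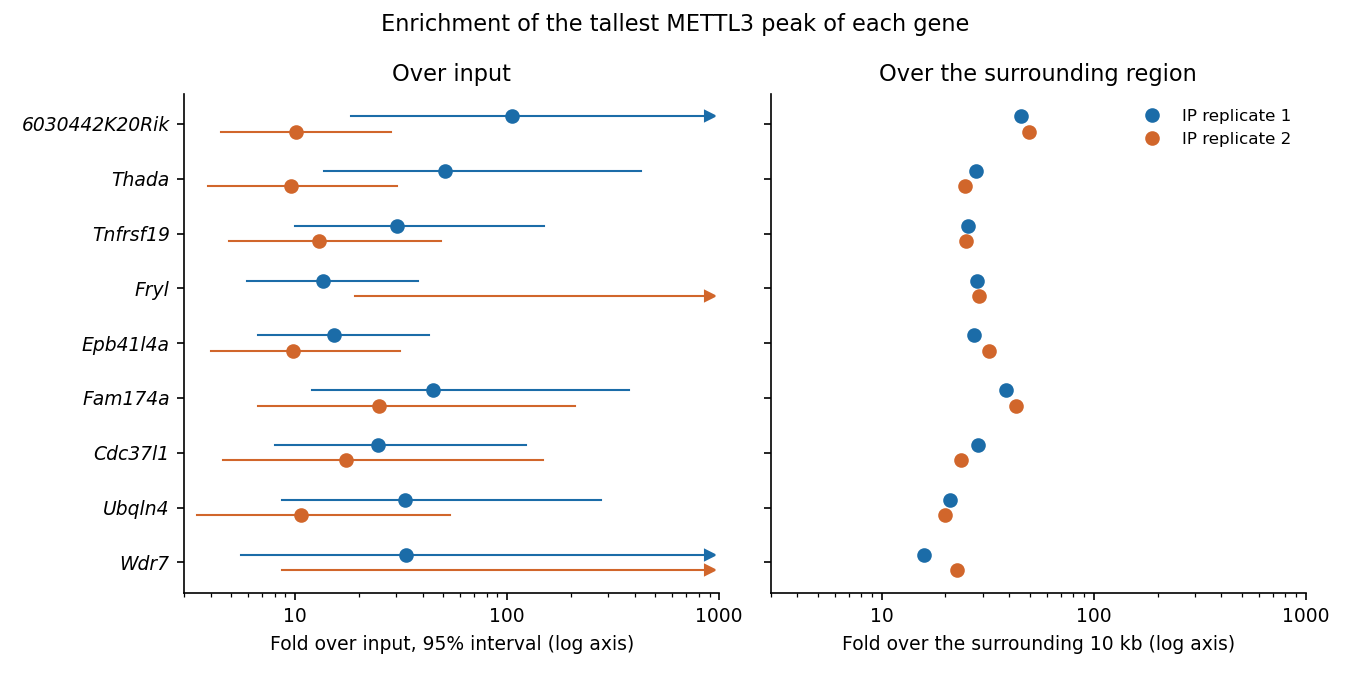
Enrichment of the tallest peak of each gene over input (left, with exact 95% intervals) and over the surrounding 10 kb (right), on log axes, for replicate 1 (blue) and replicate 2 (orange). Arrows mark intervals that run past the axis. For Fryl and Wdr7 in replicate 2, with 0 input tags, no point is drawn on the left. Their lines start at the fold with 3 input tags in place of 0 (19.09 and 8.635). The exact 95% lower limits are below these (15.19 and 6.687). Replicates lie far apart on the left at 6030442K20Rik and close together on the right.

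The focus ratio, averaged over the replicates, had a median of 0.867 over the 9 genes and of 0.832 over all shared peaks, and was above the latter at 8 of 9, all but Tnfrsf19. By replicate, 8 of 9 were above the median of all shared peaks in replicate 1 (0.833) and 6 of 9 in replicate 2 (0.826), where Cdc37l1 and Ubqln4 were below it too. After Fam174a (0.910 and 0.976), the values were highest at 6030442K20Rik (0.938 and 0.933) and Thada (0.926 and 0.944). Wdr7 (0.886 and 0.878), Epb41l4a (0.870 and 0.860), Ubqln4 (0.877 and 0.821) and Fryl (0.838 and 0.835) were lower. The ratio is computed from the tags that give the height and was not tested.

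The 9 sites differed in their position along the gene. Inside the gene were 7, and 2 were past its downstream end (Tnfrsf19 and Ubqln4). In the 7 genes with a known strand, the distance downstream of the most upstream annotated start ran from 5.83 kb at 6030442K20Rik to 111 kb at Thada. For a peak inside its gene, this side of the start is fixed by the rule, so nothing is read from it. Of the 6 protein-coding genes with the peak inside, 4 were over 200 kb long (Thada, Fryl, Epb41l4a and Wdr7). A long gene is more likely to hold a peak, and the share was 29.6% among the 81 protein-coding genes that held a shared peak and 4.52% among all protein-coding genes. Of the listed peaks on chromosomes with promoter windows, 6 of 342 (1.75%) in replicate 1 and 3 of 270 (1.11%) in replicate 2 overlapped any such window, and none of these was at the 7 genes with a window. Exons and introns were not told apart here.

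Each peak could also belong to another gene nearby, and ChIP-seq alone does not say which. Within 200 kb the number of other protein-coding genes was 16 at Ubqln4, 8 at 6030442K20Rik, 5 at Cdc37l1, 4 at Tnfrsf19 (Tnfrsf19 itself not counted), 3 at Fryl, 2 at Thada and 0 at Epb41l4a, Fam174a and Wdr7. These counts follow the width of the window: within 100 and 500 kb they were 7 and 31 at Ubqln4, 1 and 11 at Fryl, and 0 and 6 at Thada, and within 500 kb all 9 changed. Counting host genes too, the median was 4 at the 9 sites and 3 over all shared peaks. Further coding genes in that range included Nuak2, Tmcc2 and Nfasc around 6030442K20Rik, Ociad2 above Fryl, Rcl1 and Slc1a1 around Cdc37l1, and Lmna, Rab25 and Arhgef2 around Ubqln4. None of 90 regulators on 4 lists was within 200 kb of a tallest peak: 0 of 28 genes of the pluripotency network, 0 of 20 m6A writers, erasers and readers, 0 of 20 developmental factors and 0 of 22 chromatin regulators. Of all shared peaks 12.3% had a gene of these lists within 200 kb. The lists leave out Rbbp5, a chromatin regulator beside the tallest site, and the 9 genes were picked apart from sites at known regulators, so nothing is read from the 0.

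Another listed peak lay within 200 kb of the tallest peak at 2 of 9 genes, Thada (3.72 kb) and 6030442K20Rik (10.2 kb, replicate 1 alone), a share of 22.2% beside 23.1% of all shared peaks. Within 500 kb there was 1 more, shared by both replicates, 317 kb below the Fryl peak (chromosome 5, 72902407 to 72902577; 10.8 and 12.4). The remaining 6 genes had no other listed peak in that range.

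**Figure D4:**
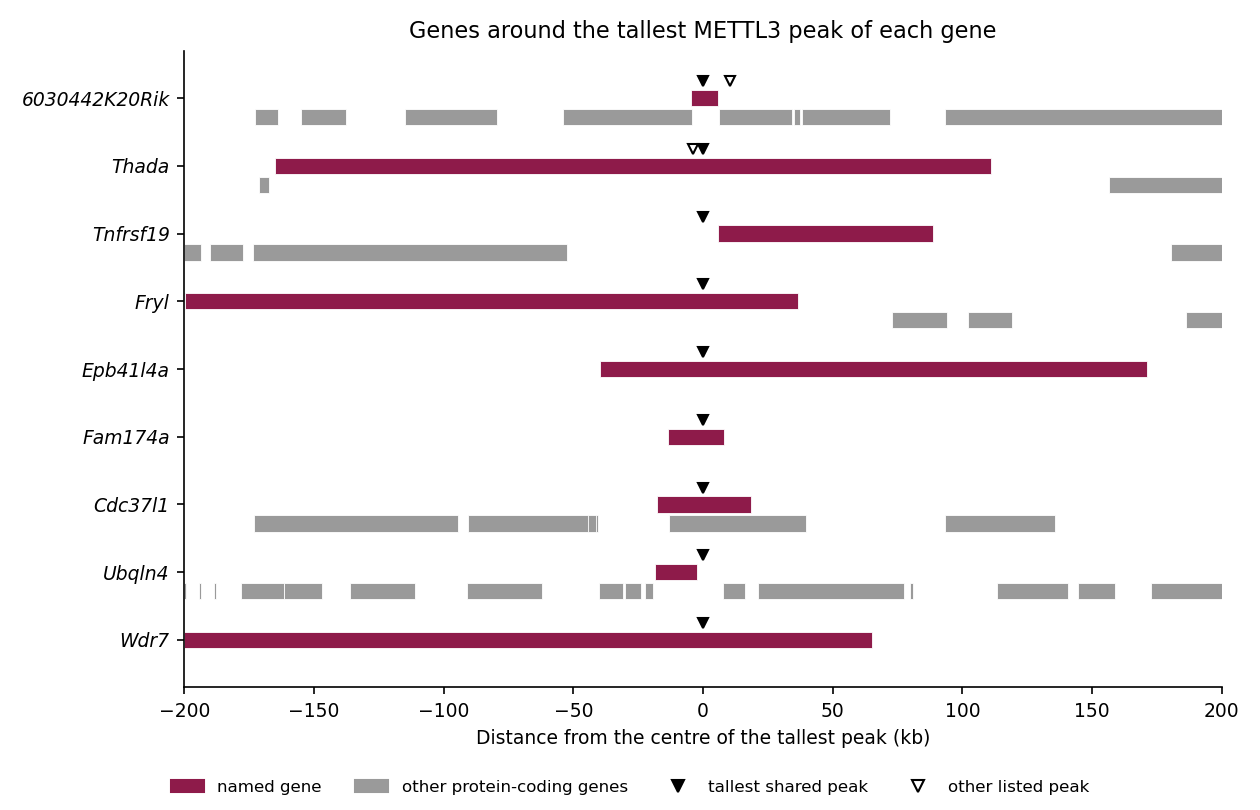
Genes and listed peaks within 200 kb of the tallest shared peak of each gene, with distance in kb from its centre on the lower axis. Dark bars are the named genes, grey bars other protein-coding genes (cut at the edges), filled triangles the tallest peak and open triangles other listed peaks of replicate 1. Ubqln4 and 6030442K20Rik lie among many genes, whereas Epb41l4a, Fam174a and Wdr7 have no other coding gene in the range.

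The promoter windows of these genes held at least as many CpG dinucleotides as the median window of protein-coding genes. The genes were grouped under a label of broad expression, which often goes with CpG-dense promoters, so nothing is read from the counts. They were not compared with promoters of other genes that hold a shared peak. In windows of 300 bases, and counting the letters CG, which read the same on both strands, Ubqln4 had 29, Cdc37l1 24, Fryl 22, Thada 21, Fam174a 20 and 6030442K20Rik 14. Tnfrsf19 had 14 at its upstream and 13 at its downstream start. The median was 7 over all 32851 windows and 13 over the 21263 windows of protein-coding genes. All 8 windows were above the first median and 7 of 8 above the second, the downstream start of Tnfrsf19 being equal to it. The 8 include the window of the non-coding 6030442K20Rik, which overlaps that of Rbbp5. The 7 windows of the 6 protein-coding genes had a median of 21. At least 1 CpG was present in 94.6% of all windows. The count is a description of the windows, and no METTL3 peak fell on them.

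**Figure D5:**
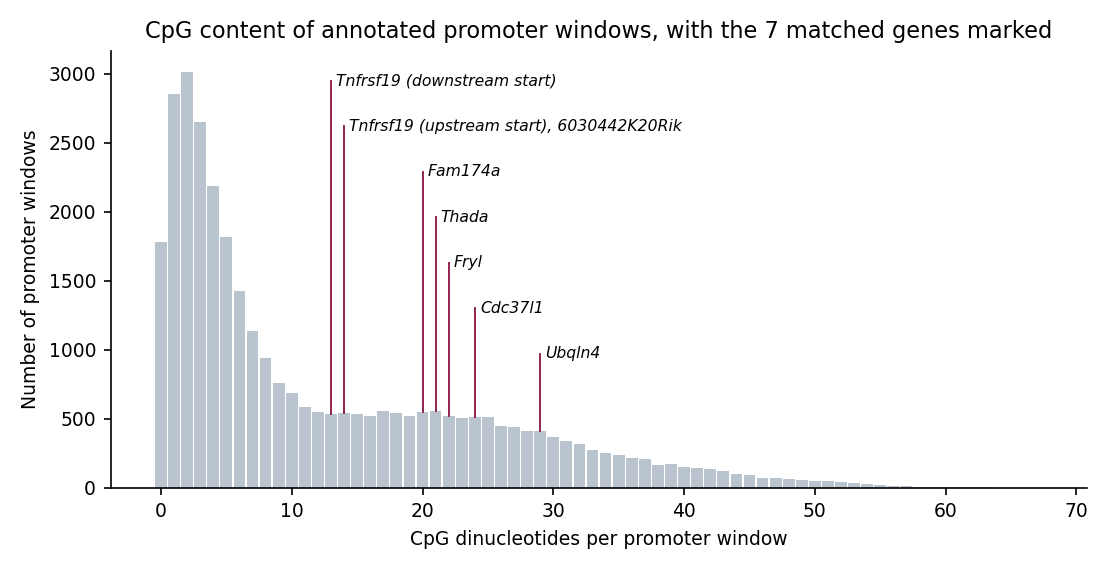
Number of CpG dinucleotides per 300-base promoter window over all 32851 RefSeq windows (bars), with the 8 windows of the 7 matched genes marked by lines. The marked windows lie between 13 and 29, to the right of the median of 7. The set holds no window on chromosome 18.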

How the data were processed

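METTL3 ChIP-seq peak lists of 2 IP libraries were used; the inputs entered through the input columns of those lists. Per the file headers, the authors called peaks with HOMER findPeaks (factor style) in each IP separately, against the input of the same number. The false discovery rate was 0.001, with a tag threshold of 14 at that rate. This threshold is not a minimum of the tags behind the listed heights, some of which are lower. A fold of 1 and a Poisson p-value of 0.0001 were the limits against input and against the local 10 kb. Per the submitters' processing notes, CASAVA, Trimmomatic 0.38, Bowtie 1.2.2, HOMER and mm10 were used, without stated settings. Heights are the authors' normalised tag counts, a signal scaled to 10000000 tags. Total tags were deposited as a count for replicate 1 and, for replicate 2, as a signal scaled to the input. Also deposited were the score, the focus ratio (a fraction), folds (a ratio) and p-values.

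Numbers of whole tags were computed back from scaled values (largest distance from a whole number 0.107 tags for IP, 0.0373 for input). In replicate 1 the tags behind the height and the total tags differed at 25 of 353 peaks, by at most 2. Ratios have exact conditional binomial 95% intervals with library totals as offsets, and heights exact Poisson intervals, computed with scipy 1.17.1 and tested on simulated data. Tags are not independent molecules, so intervals cover counting error only. No significance test was run. Genes and promoter windows came from RefSeq tables of GRCm38.p6, the assembly of mm10, with 1-based coordinates. The text names the 9 genes, every listed peak that met the rule at one, genes overlapping the tallest shared peak, the nearest protein-coding gene on each side and listed regulators within 200 kb. Some neighbouring genes are not reported here. Other genes within 200 kb, and the tall sites at no member, were named after their values were seen. Members and lists were chosen with earlier results of these data known. Sequence under the peaks was not analysed here, and no column of another sample was present. Alternatives covered overlap, distance, thresholds, ranking, and leaving out each replicate.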

Additional observations from a re-analysis of the deposited data

How the results depend on the processing

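All 9 genes kept a shared peak with a stricter reciprocal overlap, with centres within 50 bp, with a fold of at least 8 or a p-value of 1e-10 or lower in both lists, and with 50 kb around genes. The number fell to 7 with gene bodies only, which drops Tnfrsf19 and Ubqln4. Each replicate alone gave 9. Ranked by the caller's fold over input in place of height, 0 of the 9 peaks were among the first 20 of both lists, against 8 by height or by score. The share of all shared peaks that reach the first 20 of both lists by fold was not computed, so nothing is read from the 0. Fryl was 114th and 1st, and 6030442K20Rik 1st and 150th. The cause was not tested, and input tags there were 6 and 0, and 1 and 6. With the tags of both replicates summed, IP exceeded input 12.6-fold at Epb41l4a (95% interval 6.853 to 25.79) to 61.2-fold at Wdr7 (10.63 to 2454). Median height was 34.95, and 33 to 36 with a replicate left out. The median focus ratio was 0.86 to 0.886 with a replicate left out. No paired analysis was possible because no groups were tested against each other; the folds already set each IP against the input of the same number. The few input tags limit every fold over input.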
